A study of Homo sapiens with 30 samples.

Results

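Interferon-stimulated genes are the genes that cells switch on when they sense virus-like nucleic acid or receive an interferon signal. A list of 43 of them, written by name and grouped by role, was followed through RNA sequencing of cell lines grown from human acute myeloid leukemia (AML). All 43 were listed in both count tables, among 60675 genes in the overexpression table and 58051 in the knockout table. For the overexpression series, cells of the lines MV4-11 and Molm-14 carried a GFP lentivirus with MIR1-2 host gene sequence (miR-1 OE) or with GFP alone (EV). For the knockout series, these lines and THP-1 carried a GFP vector with Cas9 and 1 guide against MPC1, which encodes a subunit of the mitochondrial pyruvate carrier (MPC1 KO), or the same kind of vector with no targeting guide (EV). Each of the 10 groups had 3 libraries, so that the overexpression series held 12 and the knockout series 18. MV4-11 and Molm-14 carry an internal tandem duplication of FLT3 and THP-1 does not. All cells had received a lentiviral vector, and no library of unmodified cells was part of the comparisons. The sources do not say whether the replicates were separate infections or cultures, so p-values measure the spread between these libraries, which may be technical.

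In this pathway, RIG-I-like receptors (RIGI, IFIH1) and other sensors detect double-stranded RNA or cytosolic DNA and drive transcription of interferon beta. Secreted interferon binds its receptor, the kinases JAK1 and TYK2 signal to STAT2, which joins IRF9 in a complex that binds interferon-stimulated response elements in promoters. The induced proteins block translation (IFIT proteins, EIF2AK2), degrade RNA through RNase L (oligoadenylate synthetases), conjugate to other proteins (ISG15), trap or exclude viruses at membranes (BST2, IFITM proteins), or feed back on the pathway (USP18). Myeloid cells keep part of this set switched on without infection, and the level differs between lines.

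The series as a whole was checked first. Totals ran from 15543301 to 20939985 counts per overexpression library and from 5339360 to 9106478 per knockout library. Levels are given as CPM, counts scaled to library size. Where a gene had no count, its level may still reach what 3 counts are worth, 0.145 to 0.544 CPM by library, and this floor covers counting error only. All 8 myeloid markers had counts in every library. MIR133A1HG, the transcript that holds the MIR1-2 hairpin, was counted 44, 50 and 73 times with miR-1 OE in MV4-11 and 0 times in each EV library. MPC1 was lower in each KO library than in each EV library of its line. MV4-11 OE replicate 1 stood apart from the other libraries of its line in the interferon-stimulated genes and is therefore given apart from its group throughout.

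The promoters of these genes are shown first, since many share a motif. The table of RefSeq promoters (GRCh38.p14, 250 bases before to 50 after each start) held 35 of the 43 genes. A motif made of 2 GAAA blocks with 2 bases between them, the core of the interferon-stimulated response element, was searched on both strands, and matches that overlap were both counted. It was present in 25 of these 35 genes (71.4%) and in 1195 of all 27305 genes in the table (4.38%). A stretch around a copy of the motif is printed for 8 genes whose levels differed very unequally between libraries, read 5′ to 3′ on the strand of the gene. Capitals mark the motif, which reads TTTC where it lies on the other strand.

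IFIT1, chr10:89392492-89392531, plus strand: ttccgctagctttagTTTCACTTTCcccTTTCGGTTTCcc
OAS3, chr12:112938316-112938355, plus strand: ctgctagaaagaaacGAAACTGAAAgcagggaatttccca
MX1, chr21:41420554-41420593, plus strand: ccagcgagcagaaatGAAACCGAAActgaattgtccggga
IFI6, chr1:27672324-27672363, minus strand: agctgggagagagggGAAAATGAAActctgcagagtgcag
ISG15, chr1:1013369-1013408, plus strand: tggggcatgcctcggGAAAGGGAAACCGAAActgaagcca
DDX60, chr4:168318816-168318855, minus strand: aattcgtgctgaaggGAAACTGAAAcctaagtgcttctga
BST2, chr19:17405736-17405775, minus strand: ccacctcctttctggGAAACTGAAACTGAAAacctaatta
IFITM1, chr11:313985-314024, plus strand: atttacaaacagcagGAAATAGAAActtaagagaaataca

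Over the whole window IFI6 held 3 copies, MX1 held 1, just after the start of transcription, and the other 6 genes held 2 each, which overlap in ISG15 and BST2. The match is a description of these windows and not a measured binding site.

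In MV4-11 cells of the overexpression series, OE replicate 1 had the highest level of 41 of the 43 genes among the 6 MV4-11 libraries, where 20.8% of all genes tested were highest in that library. IFITM2 and BST2 were the exceptions. The summed level of the 43 genes was 2155 CPM in OE replicate 1, against 943.6 and 833.7 CPM in OE replicates 2 and 3. It was 880.0, 840.9 and 1163 CPM in EV replicates 1, 2 and 3, so EV replicate 3 lay between OE replicate 1 and the other 4 libraries. EV replicate 3 was in turn higher than those 4 libraries in 39 of the 43 genes, against 25.5% of all genes tested. In the 6 Molm-14 libraries the sum stayed between 880.2 and 936.7 CPM.

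**Figure D1:**
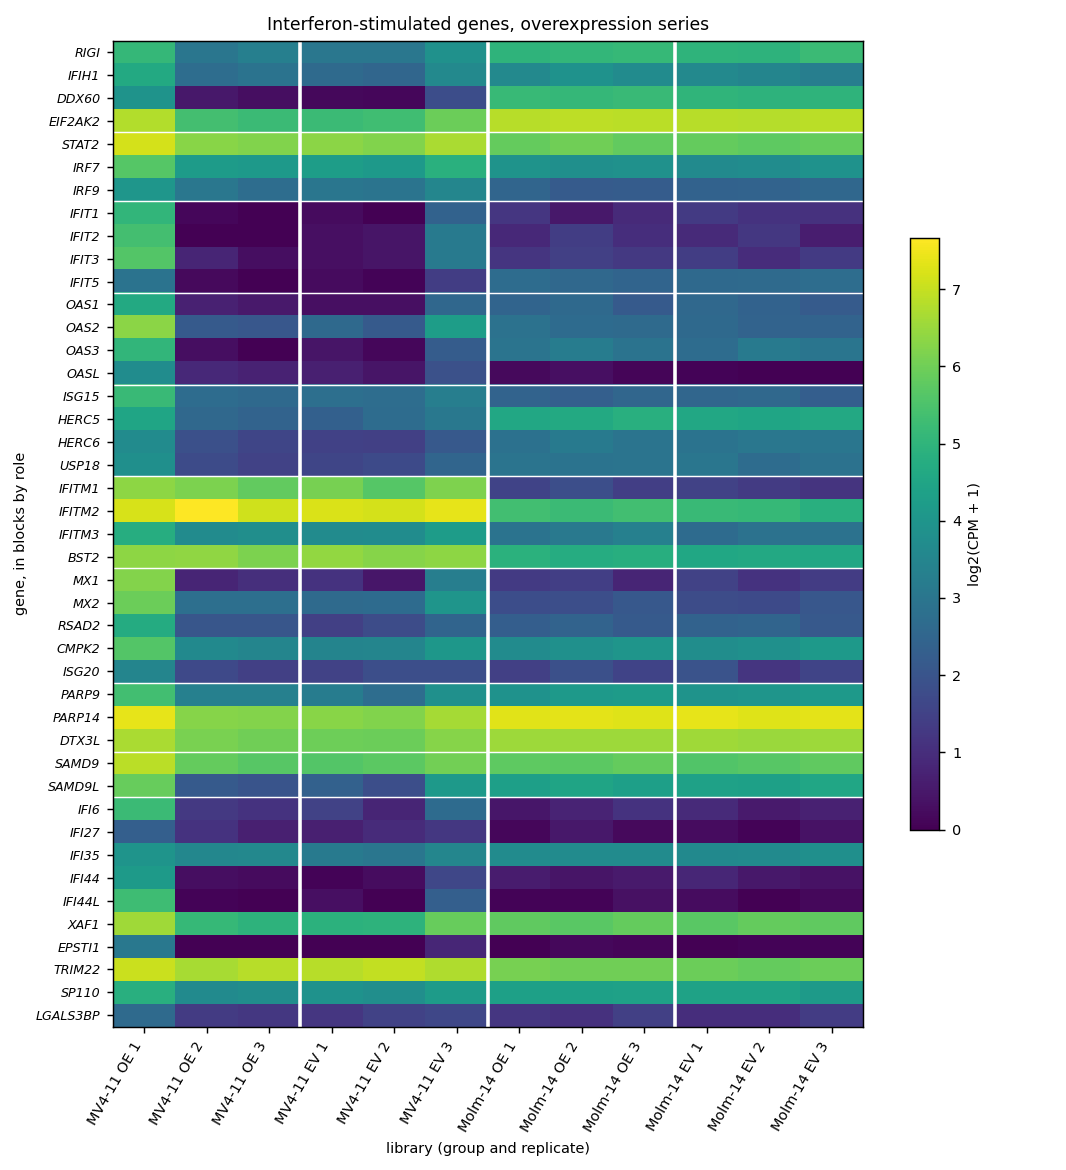
Levels of the 43 interferon-stimulated genes in the 12 libraries of the overexpression series, as log2(CPM + 1), with genes in rows in blocks by role and libraries in columns (white lines divide the groups). MV4-11 OE 1 is bright in nearly all rows, MV4-11 EV 3 is intermediate, and the 4 other MV4-11 libraries resemble each other, while the 6 Molm-14 libraries show no such column.

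The IFIT proteins, which bind viral RNA and block its translation, showed this pattern in its sharpest form. IFIT1 had 540 counts in OE replicate 1 and 2 counts in OE replicates 2 and 3 combined, with 74 counts in EV replicate 3 and 3 counts in EV replicates 1 and 2 combined. In CPM this was 32.3, 0.103 and 0 in OE, and 0.174, 0 and 4.36 in EV. IFIT2 had 679 counts in OE replicate 1 and 0 in the other OE libraries, and IFIT5 had 111 against 3. IFIT3 stood at 48.1, 0.723 and 0.222 CPM in the OE libraries, which put replicate 1 at 101.8 times the mean of the other OE libraries. All 4 genes were thus close to silent in 4 of the 6 MV4-11 libraries, at or near the floor, and well above it in the remaining pair.

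The oligoadenylate synthetases, which make the messenger that activates RNase L, followed the same order. OAS1 was at 24.3, 0.62 and 0.444 CPM in OE and 0.232, 0.241 and 4.95 CPM in EV. OAS3 was 312.9 times as high in OE replicate 1 as in the mean of the other OE libraries (541 counts against 4), the largest ratio among the 38 genes with more than 3 counts in the denominator. OAS2 and OASL had the smaller ratios of this group, 23.5 and 16.4.

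Antiviral GTPases and related enzymes also covered a wide range of ratios. MX1, a GTPase that blocks viral ribonucleoprotein import, was at 74.4, 0.723 and 1.05 CPM in OE and at 1.158, 0.386 and 8.72 CPM in EV. RSAD2 (viperin), a radical SAM enzyme that makes a chain-terminating nucleotide, was at 25.3, 3.15 and 3.17 CPM in OE and at 1.74, 2.41 and 4.54 CPM in EV. For MX1 the ratio of OE replicate 1 to the other OE libraries was 83.7, while for RSAD2, MX2, CMPK2 and the nuclease ISG20 it ranged from 4.37 to 10.1.

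In the ISG15 system, the modifier ISG15 was at 35.4, 5.53 and 5.11 CPM in OE and 6.02, 5.69 and 8.78 CPM in EV. USP18, the protease that removes ISG15 and restrains the receptor, was at 13.1, 2.38 and 1.83 CPM in OE and 2.03, 2.27 and 4.65 CPM in EV. The ligase HERC5 and its relative HERC6 were higher too in OE replicate 1, and the 4 ratios of this group lay between 4.60 and 6.65. The induced proteins IFI6 (mitochondrial and endoplasmic reticulum membranes) and LGALS3BP (a secreted glycoprotein) were at 36.3 against 1.39 and 1.17 CPM and at 5.32 against 1.5 and 1.39 CPM in the OE libraries. IFI44L, with 631 counts in OE replicate 1 and 1 in the other OE libraries together, and EPSTI1, with 123 and 0, did not pass the filter on low counts and were not tested.

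The sensors had smaller ratios. RIGI was at 33.3, 7.13 and 9 CPM in OE and 7.18, 7.14 and 13.7 CPM in EV, IFIH1 (MDA5) at 24.4, 5.73 and 6.55 CPM and 5.21, 4.78 and 11.3 CPM. The kinase EIF2AK2 (PKR), which stops translation on double-stranded RNA, was at 109, 40.6 and 36.5 CPM in OE and 36.0, 38.7 and 60.8 CPM in EV. DDX60, a helicase linked to RIG-I signalling, was the exception in this group, at 14.3, 0.413 and 0.222 CPM in OE and 0.116, 0.0965 and 2.53 CPM in EV. In each of these genes the groups overlapped, since EV replicate 3 was above OE replicates 2 and 3.

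The transcription factors had small ratios. STAT2 was at 143, 77.7 and 73.3 CPM in OE and 79.9, 73.2 and 101 CPM in EV. IRF9, its partner in DNA binding, was at 15.3, 7.18 and 5.72 CPM and at 7.07, 6.75 and 10.5 CPM. IRF7, the factor that amplifies interferon transcription, was at 49.0, 17.3 and 16.6 CPM and at 18.4, 16.6 and 28.2 CPM. The 3 ratios for OE replicate 1 were between 1.90 and 2.89. The ADP-ribosylation partners PARP9, PARP14 and DTX3L had ratios from 1.55 to 4.37, and SAMD9 and its paralog SAMD9L, which restrict poxviruses, had 2.18 and 17.9.

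The membrane restriction factors followed least. BST2 (tetherin), which holds budding virions on the cell surface, was at 81.1, 82.4 and 70.5 CPM in OE and 85.2, 76.5 and 80.8 CPM in EV. IFITM1 and IFITM2 had ratios of 1.30 and 0.856 in OE replicate 1, and IFITM3, which blocks virus entry from endosomes, was at 26.4, 11.9 and 12.7 CPM in OE and 12.1, 12.1 and 17.9 CPM in EV. TRIM22 and IFI35 also differed little, with ratios of 1.23 and 1.36. The IFITM genes are near-identical neighbours whose reads could be split between them, so their single values are less certain than their common level. BST2 and IFITM1 held the promoter motif shown above, as did IFIT1, MX1 and OAS3. Among the 35 genes with a promoter, the median ratio was 4.45 for the 21 with the motif and a ratio, and 3.53 for the 10 without it, with wide and overlapping ranges (1.06 to 312.9 and 1.36 to 45.6). The 4 genes with the motif that lack a ratio (IFIT1, IFIT5, IFI44L and EPSTI1) had 540, 111, 631 and 123 counts in OE replicate 1 against 2, 3, 1 and 0 in OE replicates 2 and 3, so leaving them out lowers the first median, and no gene without the motif was left out.

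Over the 38 genes with both ratios, the ratio of EV replicate 3 to EV replicates 1 and 2 followed that of OE replicate 1 to OE replicates 2 and 3 (Spearman's rho 0.884, Pearson's r of the log2 ratios 0.931). The genes share the libraries and are not independent replicates, so no p-value is given. Over all tested genes, those of this list included, the deviations of the 2 libraries from their group means on the log2 scale correlated at 0.404. This was the highest value for any treated and EV library of the same line in either series. It was not computed without the listed genes. The median ratio was 4.37 for OE replicate 1, with 16 of 38 genes above 5 and 7 below 2. It was 1.91 for EV replicate 3 over 41 genes, and the log2 ratio in EV replicate 3 was 0.449 times that in OE replicate 1 at the median. When all 17542 tested genes were ranked by how far OE replicate 1 exceeded the highest of the other 5 MV4-11 libraries, 25 of the top 50 were among the 43. In the same ranking for EV replicate 3 against the 4 libraries that remain, 13 of the top 50 were. Both libraries were picked by their levels of these genes, so the rankings describe that choice and are no separate support for it.

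**Figure D2:**
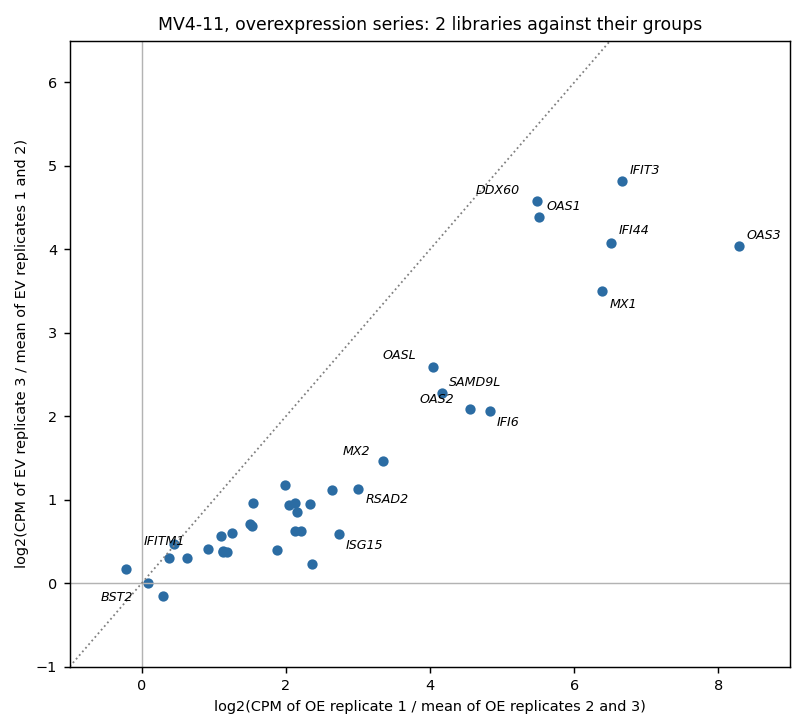
Each point is 1 of the 38 genes with more than 3 counts in both denominators. The horizontal axis is the log2 ratio of MV4-11 OE replicate 1 to the mean of OE replicates 2 and 3, the vertical axis the log2 ratio of MV4-11 EV replicate 3 to the mean of EV replicates 1 and 2, and the dotted line marks equal ratios. Most points lie below the line, with OAS3, MX1, IFI44, IFIT3, OAS1 and DDX60 far out on both axes and BST2 and IFITM1 near the origin.

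The rest of the pathway was read in lists fixed by name. Of 21 interferon ligands none passed the filter. IFNB1, which encodes interferon beta, had 13 counts in MV4-11 OE replicate 1, 1 count in MV4-11 EV replicate 3 and 0 in the other 4 MV4-11 libraries. IFNL1, an interferon of type III, had 4 counts in OE replicate 1 and 1 in EV replicate 3, and IFNLR1, its receptor subunit, had no more than 1 count in any library of the series. The receptor subunits IFNAR1 (73.6, 76.4 and 72.0 CPM in OE, 75.4, 75.0 and 74.5 CPM in EV) and IFNAR2 were level. The factor IRF1 was at 58.5, 56.4 and 52.9 CPM in OE and at 58.3, 53.7 and 63.0 CPM in EV.

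Of 47 other interferon-stimulated genes tested, 35 were highest in OE replicate 1, with a median ratio of 1.38, less than that of the 43. The largest of them were named after their values were seen. SIGLEC1, a sialic acid receptor of macrophages, was at 20.5, 0.981 and 0.667 CPM in OE and 1.22, 1.64 and 3.00 CPM in EV, and the chemokine gene CXCL10 at 6.93, 0 and 0 CPM and 0, 0 and 0.589 CPM. Genes of the NF-kappaB response showed another order: 13 of 14 tested were higher in EV replicate 3 than in EV replicates 1 and 2 and OE replicates 2 and 3, and 3 of 14 were highest in OE replicate 1, near the 20.8% of all genes. Their ratios of OE replicate 1 to OE replicates 2 and 3 had a median of 1.44 and ran from 0.998 to 15.35 over 13 genes, so that OE replicate 1 was above its own group in most of them. The factor IRF8 was lower in both libraries (5860 counts in OE replicate 1 and 6654 in EV replicate 3) than in the other 4, which were deeper and held 9402 to 12466 counts. Scaled to library size, the ratio to the other libraries of the group was 0.654 for OE replicate 1 and 0.684 for EV replicate 3. OE replicate 1 and EV replicate 3 also had the lowest summed myeloid markers of the line, 1658 and 1687 CPM against 1891 to 2213 CPM, and the lowest mitochondrial shares, 2.72% and 3.40% against 3.49% to 4.34%. The 4 B-cell markers summed to 9.92 CPM in OE replicate 1 and 2.89 to 3.71 CPM in the other 5 libraries, PAX5 holding 9.38 of the 9.92 CPM. T-cell markers summed to at most 0.0556 CPM in MV4-11 libraries, and erythroid markers were at 0 in all of them. The part of these differences in the interferon-stimulated genes was not tested.

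The first comparison asked whether miR-1 OE moved these genes. In MV4-11, 39 of the 41 tested had a positive log2 fold change (1 unit is a doubling, and SE is its standard error), with a median of 0.95 beside 0.01 over all genes tested, but 0 of 41 were called at a false discovery rate (FDR) under 5% (edgeR), where 0.177% of all genes were called. At an unadjusted p under 0.05 there was 1, IFI35, and DESeq2 also called 0. Without OE replicate 1 the direction turned: 6 of 41 were positive, the median was −0.27 and again 0 were called (0.261% of all genes, 2 of the 41 at an unadjusted p under 0.05). Without both OE replicate 1 and EV replicate 3, 23 of 40 were positive with a median of 0.04 and 0 were called, beside 0.425% of all genes, with 6 at an unadjusted p under 0.05. The percentages are of genes called by FDR. No share of all genes at the unadjusted threshold is given, here or below, so counts at that threshold are not read as an excess. Both libraries were picked by their levels of these same genes, so these settings only describe the remaining libraries. The difference between OE and EV in MV4-11 was therefore smaller than the spread between libraries of 1 group. The biological coefficient of variation, the spread between replicates beyond counting noise, had a median of 47.7% for these genes in the overexpression series and 10% for all genes tested.

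In Molm-14 the same comparison gave a median log2 fold change of 0.06, with 28 of 41 positive, beside 0 over all genes tested. None of the 41 was called by edgeR or DESeq2 (0.0057% of all genes were called), and 1 had an unadjusted p under 0.05. This gene was BST2, at 28.8, 25.6 and 27.0 CPM in OE and 22.6, 23.9 and 23.1 CPM in EV, which is 0.23 on the log2 scale (SE 0.078). The lines shared 1 estimate of the spread in this model, so the wide spread of MV4-11 also entered the Molm-14 test, and with Molm-14 fitted alone 0 were called as well. The summed myeloid markers were 901.5 to 929.2 CPM in Molm-14 OE and 841.6 to 864.2 CPM in Molm-14 EV, and their part was not tested. The direct test of the difference in OE effect between MV4-11 and Molm-14 called 0 of 41 (2 at an unadjusted p under 0.05, 0 by DESeq2), beside 0.0456% of all genes.

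The levels in control cells were compared next, within each table. Among knockout libraries, MV4-11 EV and Molm-14 EV differed in 33 of 42 tested genes, with 24 lower in MV4-11 (31.6% of all genes were called lower) and 9 higher (30.1%). The median log2 fold change was −0.84, beside 0 over all genes tested. DDX60 was at 0.464, 0.673 and 0.154 CPM in MV4-11 EV and at 59.9, 67.3 and 58.3 CPM in Molm-14 EV, a log2 fold change of −7.07 (SE 0.212, FDR 9.27e-21). IFIT1 and IFIT5 had 0 counts in all 3 MV4-11 EV libraries and were at least 11.9-fold and at least 30.3-fold lower than in Molm-14 EV, taking 3 counts per library as the floor, and the median is the same with these bounds. OAS3, IFIT3, IFIT2 and OAS1 were also lower by more than 3 on the log2 scale.

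The genes that were higher in MV4-11 EV were led by membrane restriction factors. IFITM1 was at 34.9, 32.9 and 33.0 CPM in MV4-11 EV and 1.51, 2.03 and 1.45 CPM in Molm-14 EV, a log2 fold change of 4.30 (SE 0.190, FDR 5.24e-17). IFITM2 (2.40), MX2 (2.04), BST2 (1.48) and TRIM22 (1.15) followed on the log2 scale. BST2 was at 128, 109 and 125 CPM in MV4-11 EV, at 51.0, 40.1 and 39.6 CPM in Molm-14 EV and at 45.2, 47.2 and 46.8 CPM in THP-1 EV. MV4-11 therefore combined high levels of the restriction factors at the membrane with IFIT, OAS3 and DDX60 levels near the floor.

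THP-1 EV stood above MV4-11 EV in most of these genes. MV4-11 EV was lower than THP-1 EV in 31 of 42 (34.6% of all genes were called lower) and higher in 7 (32.9%), with a median of −1.52 beside −0.01 for all genes tested. Molm-14 EV was lower than THP-1 EV in 21 of 42 (35.5%) and higher in 8 (34.1%), with a median of −0.32 beside −0.02. MX1 was at 21.9, 21.1 and 22.6 CPM in THP-1 EV, 3.03, 1.58 and 2.37 CPM in Molm-14 EV and 1.62, 0.808 and 1.23 CPM in MV4-11 EV. IFI44L, near the floor in the other lines, was at 3.72, 5.38 and 4.71 CPM in THP-1 EV. TRIM22, an E3 ligase that restricts HIV, ran the other way, at 284, 254 and 253 CPM in MV4-11 EV, 121, 108 and 128 CPM in Molm-14 EV and 9.31, 9.12 and 7.25 CPM in THP-1 EV. TRIM22 differed between each pair of lines, with log2 fold changes of 4.93 (SE 0.110) for MV4-11 and 3.78 (SE 0.111) for Molm-14 against THP-1. HERC5 and RIGI were highest in Molm-14 EV, at 71.5, 59.9 and 66.7 CPM and at 54.1, 56.6 and 63.2 CPM.

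**Figure D3:**
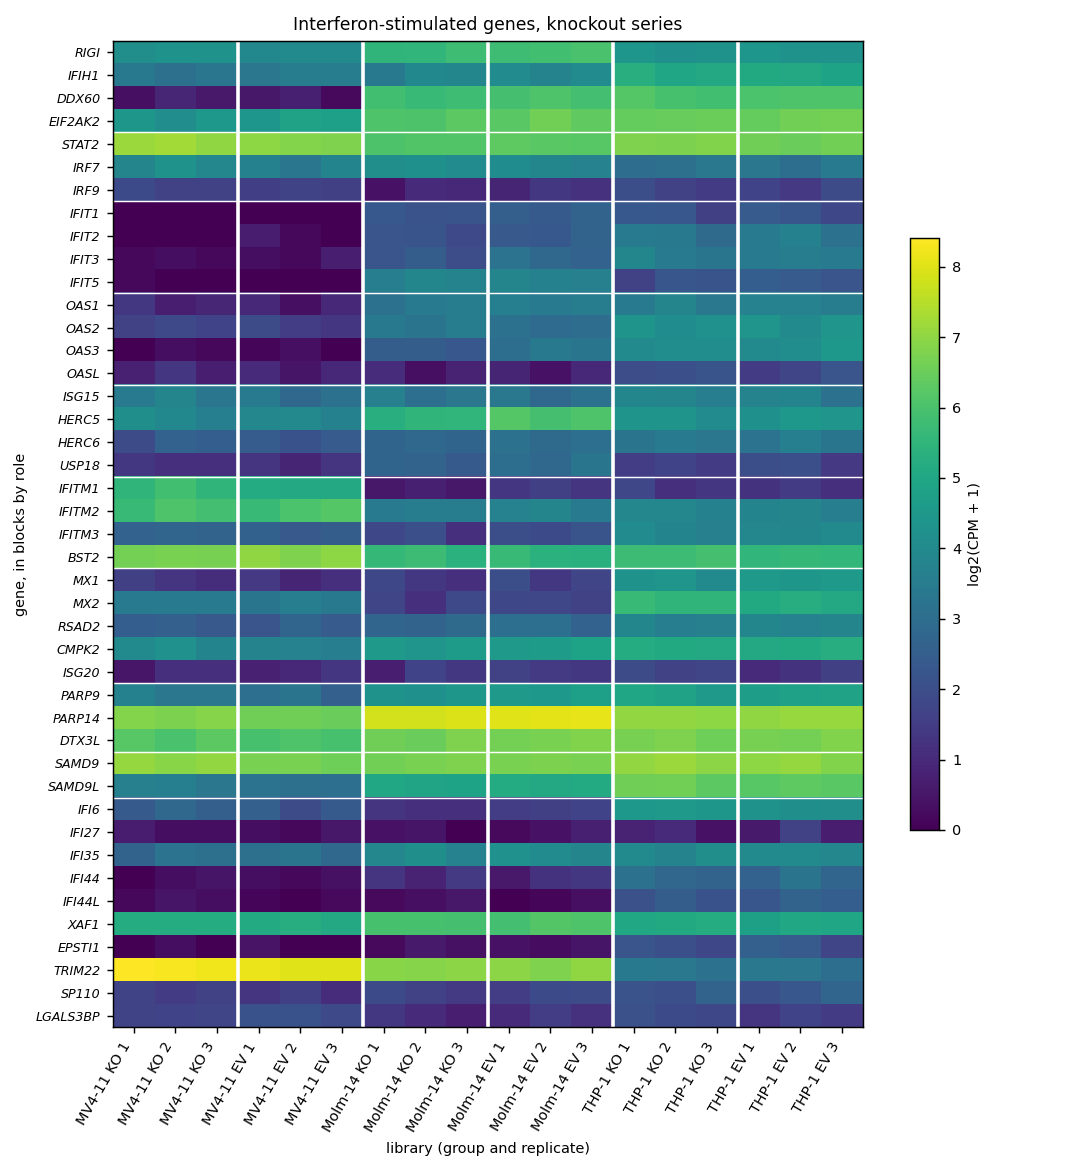
Levels of the 43 interferon-stimulated genes in the 18 libraries of the knockout series, as log2(CPM + 1), with genes in blocks by role and libraries in columns (white lines divide the groups). Columns of 1 line resemble each other whether KO or EV, the IFIT rows are dark in MV4-11, TRIM22 is brightest in MV4-11 and darkest in THP-1, and no single column stands out as MV4-11 OE 1 did in the other series.

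Divided by merged exon length, for a rough comparison between genes, BST2 had the highest level of the 43 genes in EV cells of all 3 lines of the knockout series (109.5 ± 8.93 CPM per kb in MV4-11, 39.5 ± 5.85 in Molm-14 and 42.15 ± 0.960 in THP-1, SD, n = 3). In MV4-11 EV it was followed by IFITM2 (38.4 ± 6.80 CPM per kb, SD, n = 3), TRIM22 (21.0 ± 1.39) and IFITM1 (20.2 ± 0.699), and TRIM22 and IFITM1 did not differ beyond their spread. In Molm-14 EV the order below BST2 was PARP14 (25.8 ± 0.754) and DTX3L (18.3 ± 0.875). In THP-1 EV it was IFI6 (18.7 ± 1.27), DTX3L (18.1 ± 1.15) and SAMD9 (18.1 ± 1.67), which lay within each other's spread. The merged length joins the exons of all annotated transcripts of a gene, so this order depends on the annotation. It was 12556 bases for TRIM22, 1666 for IFITM1 and 1101 for BST2. In CPM, before this division, TRIM22 was above BST2 in MV4-11 EV.

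The overexpression series held separate EV libraries of MV4-11 and Molm-14, and the line difference was read there too. With all libraries, 14 of 41 genes were called, 7 lower in MV4-11 (31.9% of all genes) and 7 higher (32.9%), with a median of 0.20 beside 0.01. IFITM1 was at 67.2, 48.7 and 71.4 CPM in MV4-11 EV and 1.83, 1.49 and 1.23 CPM in Molm-14 EV (log2 fold change 5.36, SE 0.253, FDR 5.32e-09). DDX60 was at 0.116, 0.0965 and 2.53 CPM and at 31.1, 30.1 and 30.8 CPM (log2 fold change −5.14, SE 1.26, FDR 0.00627). Without OE replicate 1 and EV replicate 3 of MV4-11, 34 of 40 were called, with 23 lower (32.6% of all genes) and 11 higher (33%), and the median was −0.63. These libraries were left out because most of the same genes were high in them, which narrows the spread and lowers the MV4-11 EV mean. For DDX60 the SE was 0.232 in this setting, against 1.26 with all libraries. The larger count is therefore no independent evidence of a line difference.

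Of the 40 genes tested for this contrast in both tables, 12 were called in both with all libraries, and all 12 had the same sign. Without the 2 libraries 29 of 39 were called in both, all with the same sign, 22 lower and 7 higher in MV4-11. Since those libraries were picked by their levels of these genes, the larger count is no added evidence of agreement between the tables. Over all genes tested in both tables, 53.9% were called in both with all libraries and 55.1% without the 2. The sign was the same in 31 of 40 and 37 of 39 listed genes, beside 84.5% of all genes under either setting. The difference between these shares was not tested. Among the 12 genes called in both with all libraries, the largest differences beside IFITM1 and DDX60 were IFITM2 (2.24 and 2.40 on the log2 scale in the overexpression and knockout tables), HERC5 (−2.01 and −2.29), RIGI (−1.81 and −1.96) and BST2 (1.80 and 1.48). Among the 29 called in both without the 2 libraries, OAS3 (−4.95 and −5.82) and OAS1 (−4.13 and −3.88) were also lower in MV4-11 by more than these.

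**Figure D4:**
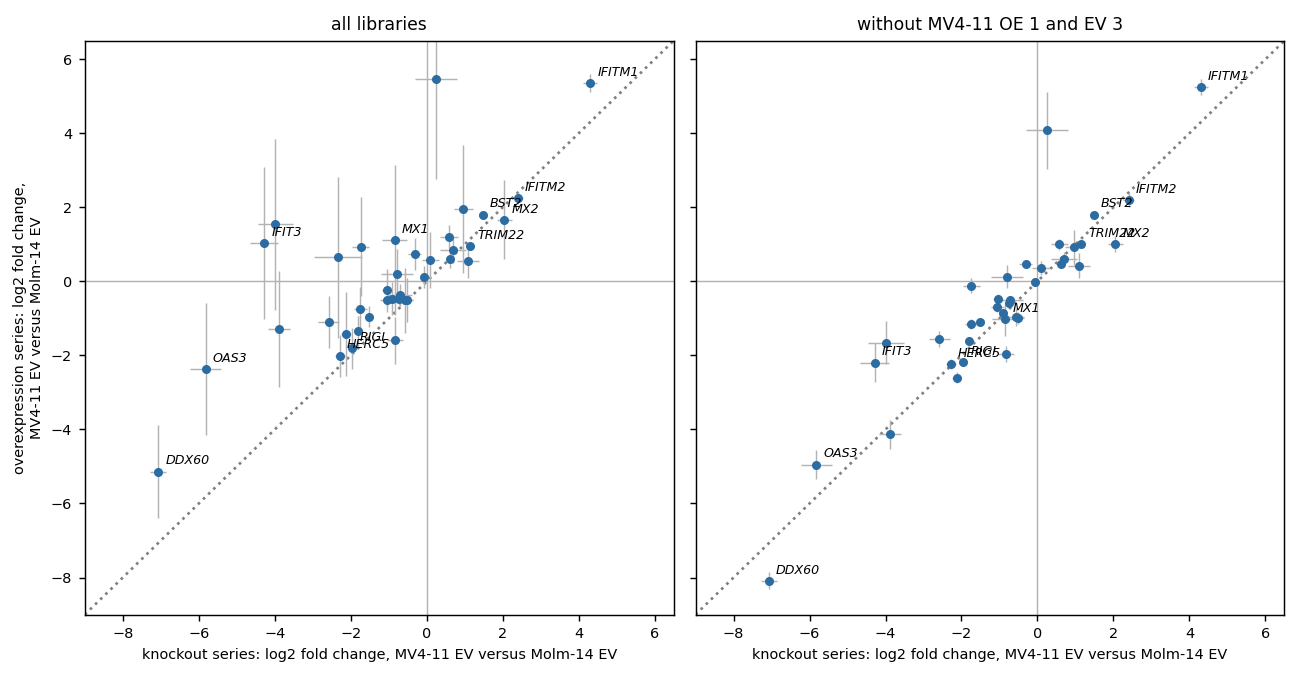
Log2 fold change of MV4-11 EV against Molm-14 EV for each gene in the knockout series (horizontal) and in the overexpression series (vertical), with all libraries (left) and without MV4-11 OE replicate 1 and EV replicate 3 (right). Bars are SE, the dotted line marks equal values, and IFIT1 and IFIT5 are left out because all MV4-11 EV libraries of the knockout series were at 0 for them. IFITM1 and DDX60 lie far out near the line in both panels, and OASL lies well above it with a wide SE. In the right panel's comparison 37 of 39 genes have the same sign, against 31 of 40 with all libraries. Over all genes tested in both series, 84.5% have the same sign under either setting.

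With MPC1 KO, the number of these genes called ranged from 0 to 5 by line. In MV4-11, 5 of 42 were called and all 5 were higher in KO, where 3.17% of all genes were called higher and 2.24% lower. The median log2 fold change was 0.17, with 29 of 42 positive, beside 0.02 over all genes tested. In Molm-14, 3 of 42 were called and all 3 were lower in KO, where 1.06% of all genes were called lower and 1.34% higher. The median was −0.20, with 32 of 42 negative, beside 0. In THP-1, 0 of 42 were called (0.0897% of all genes), with a median of −0.02, 5 at an unadjusted p under 0.05, and 0 by DESeq2.

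In MV4-11, IFITM1 rose from 34.9, 32.9 and 33.0 CPM in EV to 44.1, 56.9 and 44.5 CPM in KO, which is 0.53 on the log2 scale (SE 0.123, FDR 0.0129), and the groups did not overlap. SAMD9 rose from 104, 105 and 93.0 CPM to 133, 119 and 131 CPM (0.34, SE 0.0836, FDR 0.0169), and SAMD9L from 8.12, 7.67 and 7.40 CPM to 11.5, 11.4 and 9.18 CPM (0.46, SE 0.139, FDR 0.0494). PARP14, an ADP-ribosyltransferase, rose from 95.8, 94.4 and 89.0 CPM to 114, 107 and 116 CPM (0.27, SE 0.073, FDR 0.0288). STAT2 rose from 126, 115 and 108 CPM to 141, 152 and 128 CPM (0.27, SE 0.0795, FDR 0.0431). The largest of these rises took IFITM1 to 144.3% of its EV level. The IFIT genes, OAS3 and DDX60 held at most 7 counts in any MV4-11 KO library. IFIT1 had 0 counts in all 6 MV4-11 libraries, and IFIT2 had 6 counts in the 3 EV libraries and 0 in the 3 KO libraries. The number called depended on single libraries: it was 1 without EV replicate 2, 0 without EV replicate 3, 1 without KO replicate 1 and 2 without KO replicate 2. It was 3 with DESeq2's size factors in edgeR, 2 with only genes without a count removed, and 1 with MV4-11 fitted alone. The share of all genes called in these settings is not given, so whether it moved along with the count is not shown.

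In Molm-14, HERC5, the ligase that attaches ISG15, fell from 71.5, 59.9 and 66.7 CPM in EV to 38.3, 44.6 and 45.6 CPM in KO, which is −0.62 on the log2 scale (SE 0.119, FDR 0.00228). OAS3 fell from 7.23, 9.45 and 8.57 CPM to 4.57, 4.52 and 3.91 CPM (−0.97, SE 0.210, FDR 0.00795). IFITM1 fell from 1.51, 2.03 and 1.45 CPM to 0.472, 0.665 and 0.469 CPM (−1.61, SE 0.403, FDR 0.0255), which rests on 9, 18 and 11 counts in EV and 3, 5 and 3 in KO. In each of the 3 the KO libraries lay below all EV libraries. Without EV replicate 2, 1 of the 3 was called, HERC5, and the FDR of IFITM1 was 0.0634 with the replicate number as a block and 0.0596 by DESeq2. The fall of IFITM1 passed the FDR in only 4 of 11 alternatives (highest FDR 0.202). That of OAS3 passed in 10 of 11 and that of HERC5 in all 11. MX1, ISG15 and OAS1 were at 2.52, 1.6 and 1.25 CPM, 11.7, 7.32 and 9.06 CPM and 7.72, 10.4 and 10.6 CPM in KO, overlapping the EV libraries at 3.03, 1.58 and 2.37 CPM, 9.25, 5.96 and 8.04 CPM and 11.4, 10.1 and 10.7 CPM.

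In THP-1 the smallest unadjusted p belonged to MX2, a GTPase that blocks nuclear entry of HIV, at 33.2, 36.6 and 32.4 CPM in EV and 49.7, 44.2 and 44.6 CPM in KO (log2 fold change 0.44, SE 0.120), with an FDR of 0.278. MX1 was at 21.9, 21.1 and 22.6 CPM in EV and 18.8, 19.9 and 15.2 CPM in KO, and ISG15 at 12.6, 12.7 and 7.97 CPM and 13.4, 13.1 and 11.2 CPM.

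**Figure D5:**
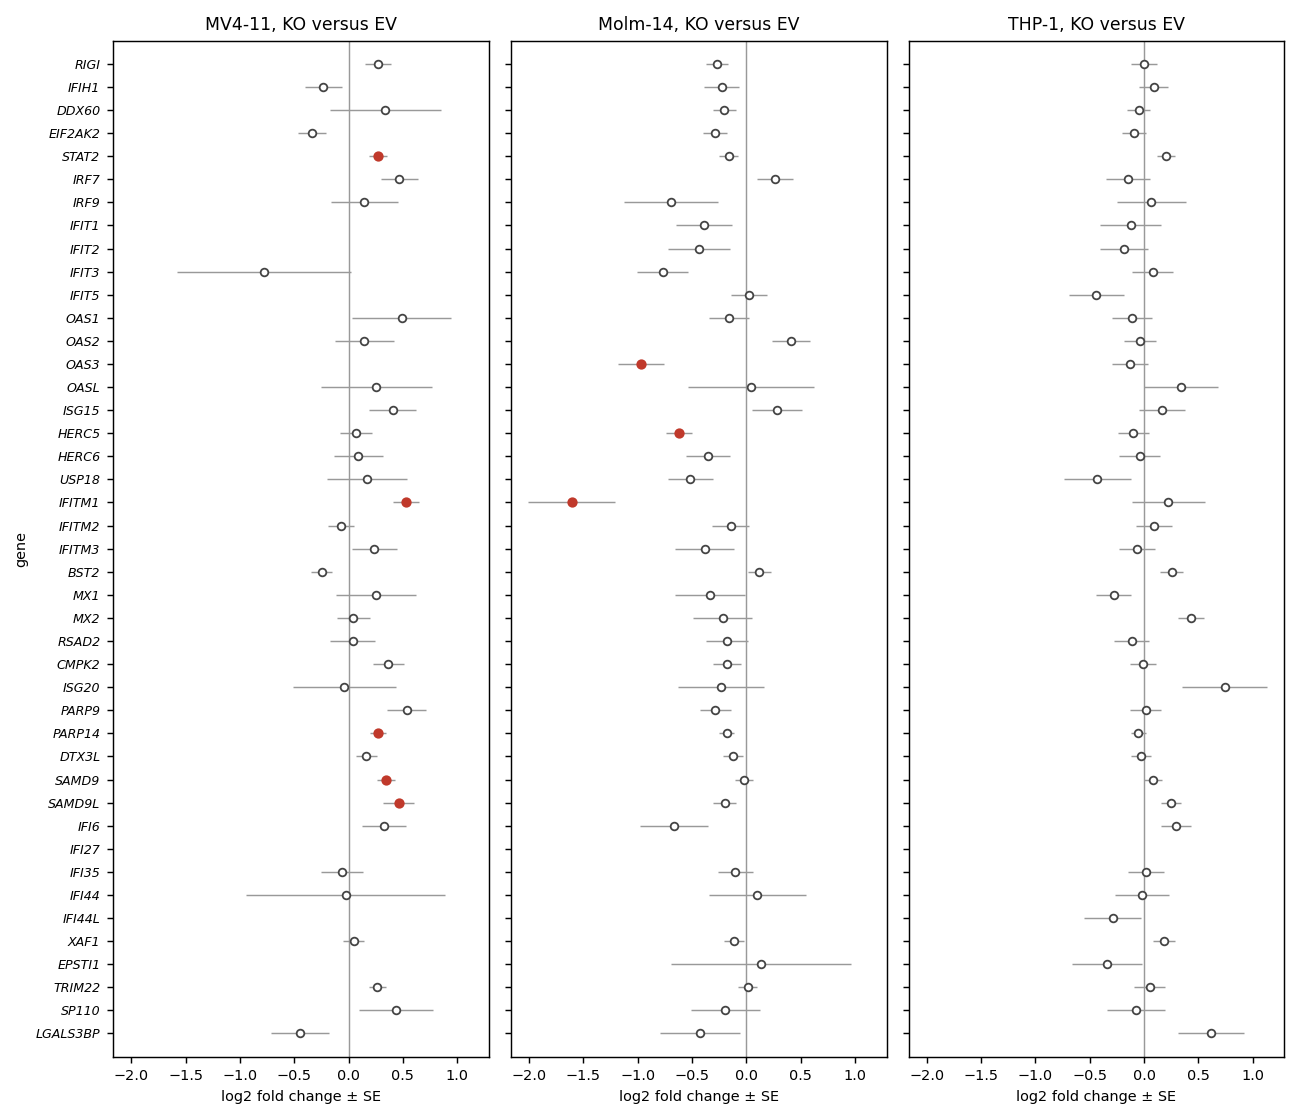
Log2 fold change of MPC1 KO against EV for the genes of the list, 1 panel per line, with bars for the SE. Filled red points passed an FDR of 5%, open points did not, and genes with 3 counts or fewer over the libraries of either group are left out of that panel. The 5 called genes lie to the right in MV4-11, the 3 called genes to the left in Molm-14, and no point is filled in THP-1.

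Whether the KO effect differed between lines was tested directly. Between MV4-11 and Molm-14, 2 of 42 were called (1.48% of all genes), IFITM1 (difference 2.14, SE 0.418, FDR 0.00621) and PARP14 (0.45, SE 0.101, FDR 0.0167), both more positive in MV4-11. STAT2 and SAMD9L were close to the threshold (FDR 0.0525 and 0.0508). The count was 1 without MV4-11 EV replicate 3, MV4-11 KO replicate 1, or Molm-14 EV replicate 3, KO replicate 1 or KO replicate 2, while it was 4 without MV4-11 EV replicate 1 and 5 without MV4-11 KO replicate 3. The share of all genes called in these settings is not given. Between MV4-11 and THP-1, 0 of 42 were called (0.193% of all genes, 8 at an unadjusted p under 0.05), and between Molm-14 and THP-1 0 of 42 (0.766% of all genes, 10 at an unadjusted p under 0.05). DESeq2 called 0 in both. The percentages are of genes called by FDR and are no measure for the counts at the unadjusted threshold.

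Of the other genes of the pathway, none of the 21 ligands passed the filter in the knockout series, and no ligand had more than 1 count in a library. The counts of called genes below are to be read beside the shares of all genes given above for each line, 3.17% higher and 2.24% lower in MV4-11 and 1.34% higher and 1.06% lower in Molm-14. In MV4-11 KO 1 of 5 tested receptor subunits rose (IL10RB, log2 fold change 0.37, FDR 0.0167). Of 10 kinases and factors, 3 rose: IRF1 (0.35, FDR 0.021), IRF8 (0.27, FDR 0.0463) and JAK1 (0.27, FDR 0.0473). Of 10 sensors and adaptors 1 rose, CGAS, which senses cytosolic DNA (0.37, FDR 0.0131). Of 45 other interferon-stimulated genes 2 rose (TRIM38 and TRIM5) and 2 fell (TRIM25 and LGALS9). In Molm-14 KO IRF8 rose from 499, 441 and 518 CPM to 851, 894 and 860 CPM (0.84, SE 0.0826, FDR 1.40e-07), the chemokine gene CXCL11 fell from 6.05, 4.73 and 4.48 CPM to 2.36, 2.13 and 2.03 CPM (−1.21, SE 0.308, FDR 0.0322), and SAMHD1, a dNTP hydrolase that restricts retroviruses, rose by 0.28 (FDR 0.0169). Of 12 NF-kappaB response genes 2 rose in Molm-14 KO (TNF and CXCL8) and 2 in MV4-11 KO (IL1B and ICAM1). In THP-1 KO none of these lists had a called gene. None of the 5 negative regulators was called in any line.

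The summed myeloid markers were 7153 to 8208 CPM in MV4-11 KO and 7166 to 8777 CPM in MV4-11 EV, and 1772 to 1831 CPM in Molm-14 KO and 1371 to 1534 CPM in Molm-14 EV, so that they did not overlap in Molm-14. B-cell markers summed to 27.3 to 36.2 CPM in Molm-14 KO and 38.0 to 56.3 CPM in Molm-14 EV. The mitochondrial share was 0.140% to 0.202% in MV4-11 KO and 0.211% to 0.452% in MV4-11 EV, also without overlap. The part of these differences in the results was not tested, and in bulk RNA a change in the make-up of the cells and a change per cell cannot be told apart. The spread between replicates was ordinary in this series, with a median biological coefficient of variation of 9.23% for the 42 genes and 8.85% for all genes tested.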

How the data were processed

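The deposited values were raw counts of reads per Ensembl gene, in 1 table per series. Per the labels and the study's methods, stranded ribosome-depleted libraries were trimmed with cutadapt (1.16), aligned to GRCh38 with STAR (2.7.6a) and counted with featureCounts (1.6.3). The authors' strand setting is not given in the sources used here. Of the 43 genes, 22 overlap a gene on the opposite strand (LIPA at IFIT1, IFIT2 and IFIT3, RSAD2 with CMPK2, PARP9 with DTX3L), where reads could be counted for either. The tables list different gene IDs, so levels were compared only within a table. Symbols and exon lengths came from GENCODE 44 and the gene name table, and promoters from RefSeq (GRCh38.p14).

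Counts were tested in R 4.3.3 with edgeR 4.0.16 (filterByExpr by group, TMM factors, robust quasi-likelihood fit, a separate mean for each group, each table fitted whole). This left 17542 overexpression-series and 14490 knockout-series genes, 41 and 42 of them from the list (IFI44L and EPSTI1, and IFI27, were filtered out). P-values were adjusted by Benjamini-Hochberg over all genes tested, and genes with an FDR under 5% were called. CPM use TMM-scaled library sizes. The scripts were tested on simulated counts. Alternatives were DESeq2 1.42.0, its size factors in edgeR, no filter beyond 1 count, each replicate left out, a replicate block, each line fitted alone, and both MV4-11 OE replicate 1 and EV replicate 3 left out. Ratios of a library to others of its group were computed only above 3 counts in the denominator.

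The 43 genes, the lists and the tests were chosen with earlier results of these data known. All 43 may be named. Values of every library are given for members chosen by role, for up to 5 called rises and falls per comparison, and for the largest line differences shared by both tables. Replicate numbers were not treated as pairs, since no line had correlated deviations above 0.1 in all 3 same-numbered pairs. Pairs of replicates all differed by more than sampling noise. A gene of the pathway is not reported here.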

Additional observations from a re-analysis of the deposited data

Results flagged for a closer look

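The effect of MPC1 KO on IFITM1 and on PARP14 differed between MV4-11 and Molm-14 by the contrast of the 2 effects in the edgeR model. For IFITM1 the difference in log2 fold change was 2.14, with a rise in the 3 MV4-11 KO libraries and a fall in the 3 Molm-14 KO libraries, and it passed the FDR in all 16 alternatives (highest FDR 0.0392). For PARP14 the difference was 0.45, and it passed in 10 of 16 (highest FDR 0.0707). IFITM1 was close to the floor in Molm-14 and well above it in MV4-11. Taken alone, its fall in Molm-14 KO passed the FDR in 4 of 11 alternatives (highest FDR 0.202) and its rise in MV4-11 KO in 8 of 11 (highest FDR 0.0935).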

How the results depend on the processing

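No alternative called a gene of the list in the OE comparison of either line, in the difference between them, in THP-1 KO or in the KO effect differences with THP-1. The median log2 fold change in MV4-11 OE turned negative without OE replicate 1, and over the libraries left out in turn it ran from −0.27 to 1.38. The line difference in EV of the overexpression series rose to 34 called genes with MV4-11 OE replicate 1 and EV replicate 3 left out, libraries picked by their levels of these genes. In MV4-11 KO the count was 3 with DESeq2's size factors, 2 without the filter and 1 with the line fitted alone, and ran from 0 to 7 with libraries left out, where the median ran from 0.12 to 0.31. In Molm-14 KO it ran from 1 to 3. For the KO effect difference between MV4-11 and Molm-14 it ran from 1 to 5. For these knockout settings the share of all genes called is not given, so the counts do not show whether the listed genes moved apart from the rest. The causes were not tested, beyond the fewer libraries or genes that some settings leave.

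The correlations of the deviations of same-numbered libraries ran from −0.377 to 0.330. In THP-1 all 3 were positive (0.179, 0.0987 and 0.330), while in the other lines of both series at least 1 was negative. No line had all 3 above 0.1, so the numbers were not read as pairs. The highest correlation of any pair, 0.404, was between MV4-11 OE replicate 1 and EV replicate 3, which have different numbers. With the replicate block, 6 genes were called in MV4-11 KO, 2 in Molm-14 KO and 5 in the difference between these effects, against 5, 3 and 2 without it, and the median in MV4-11 OE was 0.57. The share of all genes called with the block is not given. Depth limits the IFIT genes, OAS3 and DDX60 in MV4-11, where many libraries hold 3 counts or fewer.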
